A study of Caenorhabditis elegans with 22 samples.

Results

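The 7 genes described here are hif-1, egl-9, rhy-1, phy-2, cysl-2, F22B5.4 and oac-54 of Caenorhabditis elegans, which belong to the hypoxia pathway or respond to its transcription factor HIF-1. They were taken by name from a table of 45461 genes, of which 28814 had at least 1 read. All 7 passed the filter on low counts, as did 16822 genes in all. The list was chosen by name after the log2 fold changes of rotenone against DMSO in these animals were known, so those values are a description of the genes and carry no test.

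HIF-1 is the transcription factor through which animals answer low oxygen. When oxygen is present, the prolyl hydroxylase EGL-9 modifies HIF-1, and the VHL-1 and CUL-2 ubiquitin ligase then marks it for degradation. RHY-1, a multipass membrane protein resembling acyltransferases, holds the pathway down together with EGL-9. HIF-1 acts on egl-9 and rhy-1 themselves, on the collagen prolyl 4-hydroxylase subunit phy-2, and on cysl-2, whose enzyme handles cyanide and sulfide in the worm. F22B5.4 is a reported HIF-1 target whose molecular function is not known, and oac-54 belongs to the oac family of acyltransferase-like genes. Most control of HIF-1 acts on the protein, which was not measured here.

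Whole adult worms were kept on agar plates with 100 nM rotenone, an inhibitor of mitochondrial complex I, or with the solvent DMSO. They were collected 1, 5, 10 and 20 days after L4, the last larval stage, and their RNA was sequenced. There were 3 rotenone libraries per age up to day 10 and 2 at day 20, and DMSO had the same numbers. The labels used here give no strain, and they do not say whether replicates were separate cultures, so the spread between libraries may be technical.

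The 22 libraries held from 25769159 to 69961601 counted reads. In rotenone day 5 replicate 2, 17.6% of the reads came from rrn-3.1, which encodes ribosomal RNA. DMSO day 10 replicate 1 stood apart, with correlations of 0.9785 and 0.9774 to the other libraries of its group, whose own correlation was 0.9945 (Pearson's r of log2 CPM across genes). CPM is a gene's count scaled to a common library total over the tested genes, with libraries adjusted by the trimmed mean of M values (TMM). At day 1 the log2 fold change of rotenone against DMSO was related to exonic length (Spearman's rho = -0.536, 16555 genes), against values of rho from -0.052 to 0.087 at the later ages; genes are not independent replicates.

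On genome build WBcel235, hif-1 (F38A6.3) lies on chromosome V at 20780407 to 20785260 on the plus strand, and egl-9 (F22E12.4) on the same chromosome at 10468517 to 10476915, also on the plus strand. The gene phy-2 (F35G2.4) lies on chromosome IV at 12211097 to 12215987 on the minus strand. The other 4 genes are on chromosome II. There rhy-1 (W07A12.7), at 9161379 to 9163448, and oac-54 (W07A12.6), at 9158111 to 9159984, are direct neighbours on the plus strand, 1394 bases apart. F22B5.4 lies at 8449710 to 8452742 on the plus strand. The gene cysl-2, listed in the table only as K10H10.2, lies at 14492874 to 14494451 on the minus strand. Strand is not kept by this library kit. Reads in the 82 exonic bases that rhy-1 shares with W07A12.8, and in the 36 that cysl-2 shares with vnut-1, both on the opposite strand, therefore cannot be told apart.

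Per kilobase of exon, hif-1 had the highest level of the 7 genes, with a median of 49.5 CPM per kb over the libraries, above 81.2% of 16555 genes. The detoxifying enzyme gene cysl-2 followed at 26.9 CPM per kb. The inhibitor rhy-1, the hydroxylase egl-9 and the collagen enzyme phy-2 were close together at 9.37, 8.61 and 8.09 CPM per kb. The genes with the lowest levels were oac-54 at 1.58 CPM per kb and F22B5.4 at 0.588 CPM per kb, which is above 26.4% of genes. F22B5.4 was counted with 4 to 135 reads per library, and oac-54 with 29 to 338, so both are less precisely measured than hif-1 with 2852 to 10996.

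**Figure D1:**
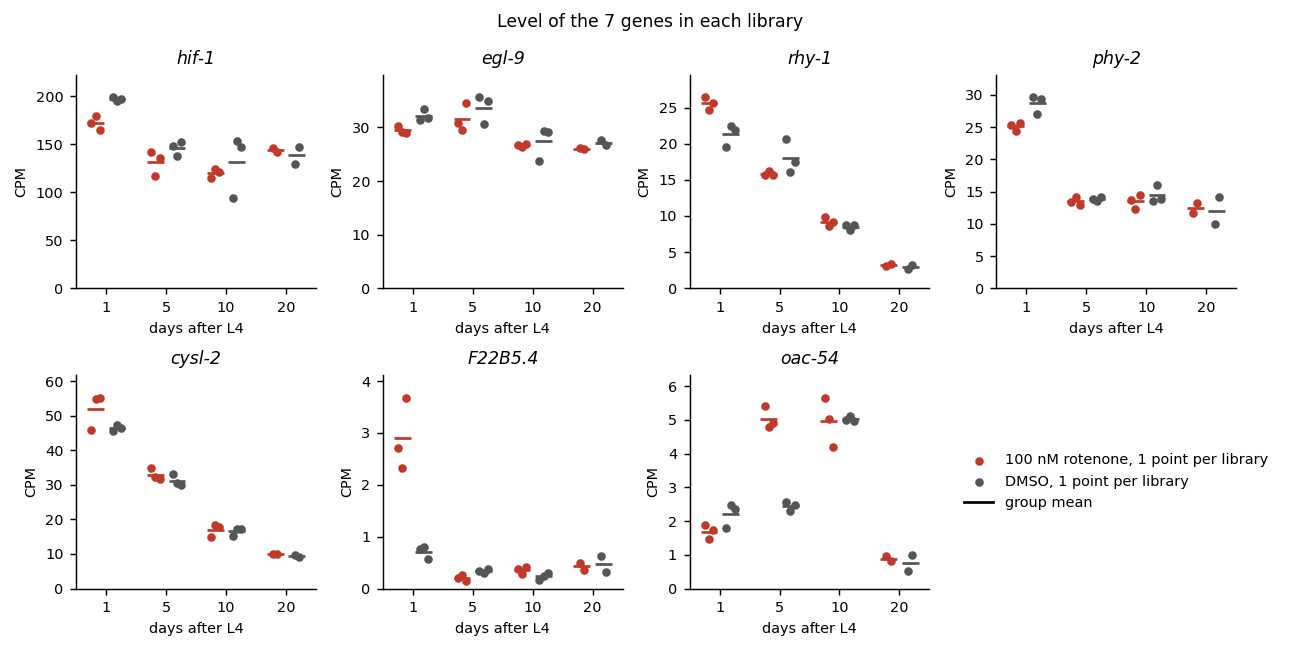
CPM of each gene (y axis, linear, from 0) in each library by days after L4 (x axis), with rotenone in red to the left of DMSO in grey, 1 point per library and a line at the group mean. F22B5.4 stands at 2.33 to 3.68 CPM in rotenone at day 1 and under 1 in every other group, while rhy-1 and cysl-2 step down at each later age in both treatments.

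Among the 7 genes, F22B5.4 at day 1 and oac-54 at day 5 had the largest differences between rotenone and DMSO. At the other ages their log2 fold changes were smaller, and that of F22B5.4 was -0.64 ± 0.38 at day 5 and 0.58 ± 0.32 at day 10 (SE). The factor gene hif-1, the regulators egl-9 and rhy-1 and the targets phy-2 and cysl-2 differed by at most 1.2-fold at any age. At day 1, 1 of the 7 genes (F22B5.4, higher) passed an adjusted p of 0.05 in the edgeR fit, where 0.648% of all tested genes passed (0.375% higher, 0.273% lower). At day 5, 1 gene (oac-54, higher) passed, where 0.88% of all genes did (0.107% higher, 0.773% lower). None of the 7 passed at day 10, where 1.36% of genes did (0.452% higher, 0.91% lower), or at day 20, where 0.0654% did (0.0594% higher, 0.00594% lower). Because these contrasts were known when the list was made, the counts are given without any reading.

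The transcript of hif-1 itself stood at 172, 180 and 165 CPM in rotenone at day 1, against 199, 195 and 197 in DMSO. All 3 rotenone libraries were below all 3 DMSO libraries, with a log2 fold change of -0.19 ± 0.13 (SE). With the dependence on gene length removed, that value became 0.07, so its direction at day 1 depends on the length trend. At day 5 the level was 141.5, 117 and 136 CPM in rotenone and 148, 138 and 153 CPM in DMSO, and at day 10 it was 115, 124 and 121 against 94, 154 and 147. Both sets overlapped. The lowest value at day 10 came from DMSO replicate 1, the library that stood apart. Without it the log2 fold change at day 10 was -0.30, and with it -0.13 ± 0.13. At day 20 hif-1 had 146 and 142.3 CPM in rotenone and 130 and 147 CPM in DMSO. Ordered over the 8 groups, DMSO at day 1 was highest at 197 ± 2.2 CPM (SD, n = 3), then rotenone at day 1 at 172 ± 7.5, and neither overlapped its neighbour in that order. The other 6 group means ran from 120 to 146 CPM, and each overlapped the next.

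In CPM, with the length trend kept, the hydroxylase gene egl-9 was the steadiest of the 7, with its highest group mean 1.3-fold above the lowest. With that trend removed, its log2 fold change in rotenone by day 20 against day 1 was -0.67. In rotenone at day 1 its levels were 30.2, 29.2 and 29.0 CPM, against 31.3, 33.5 and 31.7 CPM in DMSO. The groups did not overlap, and the log2 fold change was -0.13 ± 0.09, or 0.18 with the length trend removed. At days 5, 10 and 20 the log2 fold changes were -0.09 ± 0.09, -0.04 ± 0.09 and -0.06 ± 0.11. In the order of the 8 groups each overlapped the next, except that rotenone at day 10, at 26.7 ± 0.34 CPM (SD, n = 3), did not overlap rotenone at day 20, at 26.0 ± 0.079 CPM (SD, n = 2).

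The pathway inhibitor rhy-1 was measured at 26.4, 24.7 and 25.6 CPM in rotenone at day 1 and at 19.6, 22.4 and 21.9 CPM in DMSO. Every rotenone library lay above every DMSO library, and the log2 fold change was 0.26 ± 0.09, a 1.2-fold difference. At day 5 the levels were 15.6, 16.2 and 15.7 CPM in rotenone and 20.6, 16.1 and 17.5 CPM in DMSO, which overlapped, at -0.19 ± 0.10. The difference at day 10 was 0.11 ± 0.10 and at day 20 it was 0.16 ± 0.13. W07A12.8, which shares 82 exonic bases with rhy-1, had 2.12 ± 0.18 CPM in rotenone and 1.26 ± 0.20 CPM in DMSO at day 1 (SD, n = 3 each), without overlap, at a log2 fold change of 0.77 ± 0.18 (adjusted p = 0.059, edgeR). The part of shared reads in the difference of rhy-1 was not tested. Over the 8 groups rhy-1 spanned 8.8-fold. Rotenone at day 1 stood alone at the top, followed by DMSO at day 1, DMSO at day 5 and rotenone at day 5, each overlapping the next. The groups of day 10 and then those of day 20 followed without overlap between the ages, and within each of these ages the treatments overlapped.

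Of the targets, phy-2 encodes a catalytic subunit of the enzyme that hydroxylates prolines in collagen. Its levels were 25.3, 24.4 and 25.7 CPM in rotenone at day 1 and 29.6, 27.1 and 29.3 CPM in DMSO, again without overlap, at a log2 fold change of -0.19 ± 0.11. At the later ages rotenone and DMSO overlapped, with log2 fold changes of -0.04 ± 0.11 at day 5, -0.10 ± 0.11 at day 10 and 0.05 ± 0.14 at day 20. The cyanide- and sulfide-handling enzyme gene cysl-2 had 45.8, 54.9 and 55.2 CPM in rotenone at day 1, against 45.6, 47.3 and 46.4 in DMSO. There 2 of the 3 rotenone libraries were above all DMSO libraries and the third lay among them, at 0.16 ± 0.09. Its differences at days 5, 10 and 20 were 0.08 ± 0.09, 0.04 ± 0.09 and 0.09 ± 0.12. At day 20, with 2 libraries per group, cysl-2 stood at 10.1 and 10.1 CPM in rotenone and at 9.70 and 9.20 in DMSO. Over the 8 groups cysl-2 spanned 5.5-fold and was ordered by age, with rotenone and DMSO overlapping at days 1, 5 and 10 and no overlap between ages. For phy-2, which spanned 2.37-fold, DMSO at day 1 and then rotenone at day 1 stood apart, and the other 6 groups each overlapped the next.

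F22B5.4 gave the largest difference of the 7 genes. Its levels at day 1 were 2.71, 2.33 and 3.68 CPM in rotenone and 0.765, 0.798 and 0.563 CPM in DMSO. The lowest rotenone library was above the highest DMSO library, and the log2 fold change was 2.00 ± 0.22, or 3.99-fold. Leaving out any 1 library of these groups gave 1.79 to 2.15, and removing the length trend gave 1.79; F22B5.4 is the shortest of the 7 genes, with 0.62 kb of exon. At day 5 the order of the treatments was the opposite. The levels were then 0.208, 0.267 and 0.155 CPM in rotenone and 0.333, 0.298 and 0.369 CPM in DMSO, all rotenone libraries lying below all DMSO libraries, at -0.64 ± 0.38. The levels at day 10 were 0.373, 0.275 and 0.424 CPM in rotenone and 0.165, 0.241 and 0.291 CPM in DMSO, and at day 20 they were 0.493 and 0.362 against 0.621 and 0.310. Both sets overlapped, with log2 fold changes of 0.58 ± 0.32 and -0.18 ± 0.34. Among the 8 groups, rotenone at day 1 was highest at 2.91 ± 0.70 CPM (SD, n = 3) and overlapped no other, followed by DMSO at day 1 at 0.709 ± 0.13. The other 6 group means lay between 0.210 and 0.466 CPM, and of the neighbours among them only DMSO at days 5 and 10 did not overlap.

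The acyltransferase family gene oac-54 showed its difference at day 5. It stood at 5.41, 4.80 and 4.92 CPM in rotenone and at 2.58, 2.30 and 2.48 CPM in DMSO. The groups were far apart, with a log2 fold change of 1.05 ± 0.16, or 2.07-fold, and 1.08 without the rotenone library rich in rrn-3.1. At day 1 the levels were 1.88, 1.46 and 1.73 CPM in rotenone and 1.79, 2.48 and 2.36 CPM in DMSO, which overlapped, at -0.41 ± 0.18. At day 10 both treatments had the level that rotenone had at day 5, with 5.66, 5.03 and 4.19 CPM in rotenone and 5.01, 5.12 and 4.96 CPM in DMSO. At day 20 both were below 1 CPM, at 0.958 and 0.808 in rotenone and 0.520 and 0.999 in DMSO. The rotenone effect at day 5 exceeded that at day 1 by 1.46 ± 0.24 on the log2 scale. Ordered by level, rotenone at day 5 and both groups of day 10 came first, at 4.96 to 5.05 CPM and with overlap. DMSO at day 5, at 2.46 ± 0.14 CPM, came next and did not overlap them. At day 5, rhy-1, the neighbour 1394 bases away, was on average lower in rotenone, at 15.8 ± 0.33 CPM against 18.1 ± 2.3 CPM in DMSO (SD, n = 3 each).

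**Figure D2:**
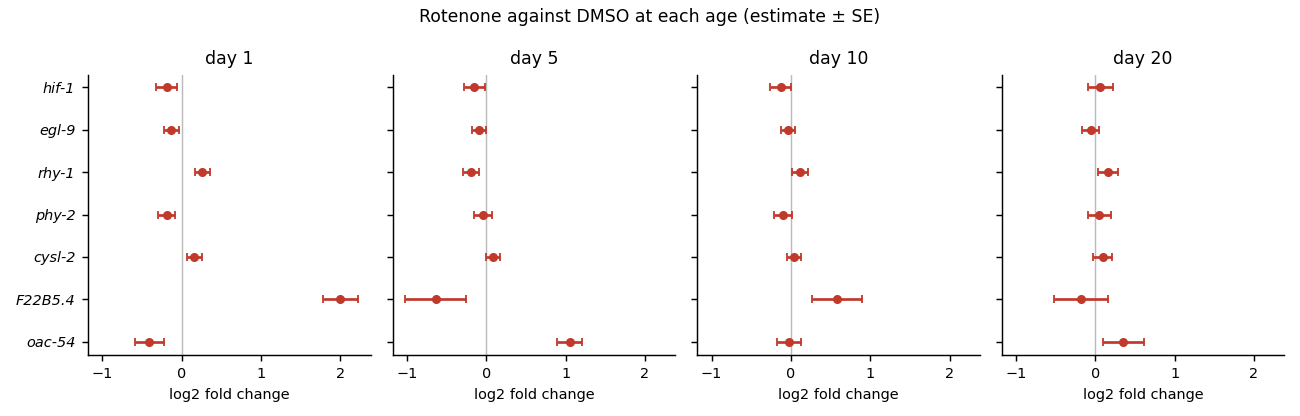
Log2 fold change of rotenone against DMSO (x axis) with its SE for each of the 7 genes (y axis), in 1 panel per age. F22B5.4 at day 1 stands at 2.00 and oac-54 at day 5 at 1.05; the points of hif-1, egl-9, rhy-1, phy-2 and cysl-2 stay between -0.19 and 0.26.

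Non-overlapping libraries were common at day 1. There 2 of the 7 genes (rhy-1 and F22B5.4) had all rotenone libraries above DMSO and 3 (hif-1, egl-9 and phy-2) had all below. Of all genes tested, 20.5% lay wholly above and 21.9% wholly below at this age. At day 5 there was 1 gene above (oac-54) and 1 below (F22B5.4), with 6.71% and 11.4% of all genes. At day 10 no member was separated in either direction, against 4.12% of all genes above and 7.46% below. At day 20, with 2 libraries against 2, cysl-2 lay above and egl-9 below, with 18.6% and 15.6% of all genes. The median log2 fold change of the 7 genes was -0.13, -0.09, -0.02 and 0.06 at days 1, 5, 10 and 20, beside 0.04, -0.01, -0.05 and 0.02 over all genes.

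With age, most of these genes fell, and in DMSO the largest declines by day 20 were those of rhy-1 and cysl-2. Each later age was compared with day 1 of the same treatment by the quasi-likelihood test of edgeR, with p adjusted over all 16822 genes. In DMSO, 5 of the 7 genes fell by day 5 and 6 fell by day 10, while 1 (oac-54) rose by day 10. By day 20, 6 had fallen and none had risen. Change with age was general: 56% of all genes passed at day 5 (31.3% lower and 24.6% higher), 56.3% at day 10 (29.6% lower and 26.7% higher) and 58.7% at day 20 (30.9% lower and 27.8% higher). In rotenone, 5 genes fell and 1 (oac-54) rose by day 5 and again by day 10, and 5 fell by day 20; F22B5.4 and oac-54 are among them, and their rotenone libraries are those that drew attention to them. Over all genes in rotenone, 62.7%, 60.3% and 64.8% passed at days 5, 10 and 20, of which the lower ones made 35.4%, 33.7% and 33.4% of all genes and the higher ones 27.3%, 26.6% and 31.4%. The comparisons within a treatment share its day 1 libraries, and worms were measured as a whole, so fewer cells of a type and less RNA per cell cannot be told apart.

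In DMSO the inhibitor rhy-1 averaged 21.3 ± 1.5, 18.1 ± 2.3, 8.54 ± 0.39 and 2.91 ± 0.37 CPM at days 1, 5, 10 and 20 (SD, n = 3 each and 2 at day 20). Relative to day 1 the log2 fold changes were -1.32 ± 0.10 at day 10 (adjusted p = 7.7e-10) and -2.89 ± 0.13 at day 20 (adjusted p = 1.7e-13). The day 20 level was 0.135 of that at day 1, and no library of days 10 or 20 overlapped day 1. At day 5 the libraries overlapped those of day 1, and the change of -0.24 ± 0.10 (adjusted p = 0.041) was lost without DMSO replicate 2 or 3 of day 1 or replicate 2 or 3 of day 5 (adjusted p = 0.11 to 0.20). In rotenone rhy-1 averaged 25.6, 15.8, 9.23 and 3.24 CPM at the same ages, and its change by day 5 was -0.69 ± 0.10 (adjusted p = 4.8e-06). By day 20 the change was -2.98 ± 0.12 (adjusted p = 8.6e-14). The overlapping gene W07A12.8 also fell in DMSO by day 20, at -3.60 ± 0.34 (adjusted p = 2.1e-08), but was higher at day 5, at 0.62 ± 0.18 (adjusted p = 0.0074).

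The target cysl-2 followed the same downward course. In DMSO it averaged 46.4 ± 0.83, 31.2 ± 1.7, 16.5 ± 1.2 and 9.45 ± 0.35 CPM at days 1, 5, 10 and 20. Every group lay below the one before it without overlap, and the change by day 20 was -2.29 ± 0.12 (adjusted p = 1.5e-12), to 0.204 of the day 1 level. In rotenone the averages were 52.0, 32.9, 17 and 10.1 CPM, and the change by day 20 was -2.37 ± 0.12 (adjusted p = 9.7e-13). The vesicular transporter gene vnut-1, whose exons share 36 bases with cysl-2, stayed at 46.7 to 51.6 CPM on average in DMSO at all ages, and its log2 fold change by day 20 was -0.06 ± 0.09 (adjusted p = 0.58).

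The collagen enzyme gene phy-2 dropped between days 1 and 5 and then levelled. In DMSO it averaged 28.7 ± 1.3, 13.9 ± 0.37, 14.5 ± 1.4 and 12.1 ± 3.1 CPM at the 4 ages. The log2 fold changes against day 1 were -1.05 ± 0.11 (adjusted p = 1.7e-07), -0.98 ± 0.11 (adjusted p = 3.1e-07) and -1.26 ± 0.13 (adjusted p = 6.6e-08). In rotenone they were -0.90, -0.89 and -1.01 at days 5, 10 and 20, all past the threshold. The 4 groups of days 5 and 10 lay at 13.5 to 14.5 CPM on average and overlapped.

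The factor gene hif-1 fell less. In DMSO its log2 fold changes were -0.43 ± 0.13 by day 5 (adjusted p = 0.0076), -0.58 ± 0.13 by day 10 (adjusted p = 0.00073) and -0.51 ± 0.15 by day 20 (adjusted p = 0.0054). Without DMSO day 10 replicate 1 the day 10 value was -0.42 (adjusted p = 0.00017). The day 20 call was lost without DMSO day 20 replicate 1, at -0.41 (adjusted p = 0.10). In rotenone hif-1 fell by day 5, at -0.39 ± 0.13 (adjusted p = 0.012), and by day 10, at -0.52 ± 0.13 (adjusted p = 0.0017). The day 5 call was lost without rotenone replicate 2, at -0.31 (adjusted p = 0.066). Alternatives that kept these libraries gave -0.73 to -0.34 at day 5 and -0.78 to -0.49 at day 10. In DMSO at day 10 they gave -0.87 to -0.55. Over all genes, the changes in rotenone at days 5, 10 and 20 were related to exonic length (Spearman's rho = 0.228, 0.125 and 0.236). At day 20 in rotenone the value was -0.26 ± 0.14 (adjusted p = 0.13). It was -0.67 (adjusted p = 1.1e-07) with the length trend removed. It also passed, at -0.22 to -0.28, with a minimum mean count of 50, when rotenone at days 1 and 20 was fitted alone, and without DMSO day 10 replicate 1. For egl-9 the DMSO values were 0.07 ± 0.09 at day 5 (adjusted p = 0.53), -0.23 ± 0.09 at day 10 (adjusted p = 0.034) and -0.24 ± 0.10 at day 20 (adjusted p = 0.043). The egl-9 call at day 10 was lost without DMSO day 10 replicate 1 or DMSO day 1 replicate 2 or 3 (adjusted p = 0.057 to 0.11). Its day 20 call was lost when any 1 of the 5 libraries was left out (adjusted p = 0.056 to 0.20). In rotenone egl-9 had log2 fold changes of 0.10 ± 0.09, -0.14 ± 0.09 and -0.18 ± 0.10 at days 5, 10 and 20 (adjusted p = 0.32, 0.17 and 0.12), and all libraries of days 10 and 20 were below those of day 1. These values depend on the length trend. With it removed they were -0.28, -0.36 and -0.67 (adjusted p = 0.015, 0.0022 and 1.8e-05), so that the direction at day 5 turned and all 3 passed.

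F22B5.4 in DMSO was lower at day 5, at -1.12 ± 0.29 (adjusted p = 0.0029), and at day 10, at -1.57 ± 0.30 (adjusted p = 0.00017). At day 20 it was at -0.52 ± 0.30 (adjusted p = 0.15), and at -1.19 (adjusted p = 0.037) without DMSO day 20 replicate 1. In rotenone, where day 1 is the group with the high level, the log2 fold changes were -3.76 ± 0.28, -2.99 ± 0.23 and -2.69 ± 0.27 at days 5, 10 and 20. The gene oac-54 was the only one of the 7 that rose. In DMSO its log2 fold change was 0.15 ± 0.17 at day 5 (adjusted p = 0.48), it rose by day 10 to 2.27-fold of day 1 at 1.18 ± 0.16 (adjusted p = 3.2e-06), and it fell by day 20, at -1.65 ± 0.23 (adjusted p = 3.5e-06). In rotenone the values were 1.60 ± 0.17, 1.57 ± 0.17 and -0.89 ± 0.22. The neighbouring rhy-1 fell at day 10 in both treatments, when oac-54 rose.

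**Figure D3:**
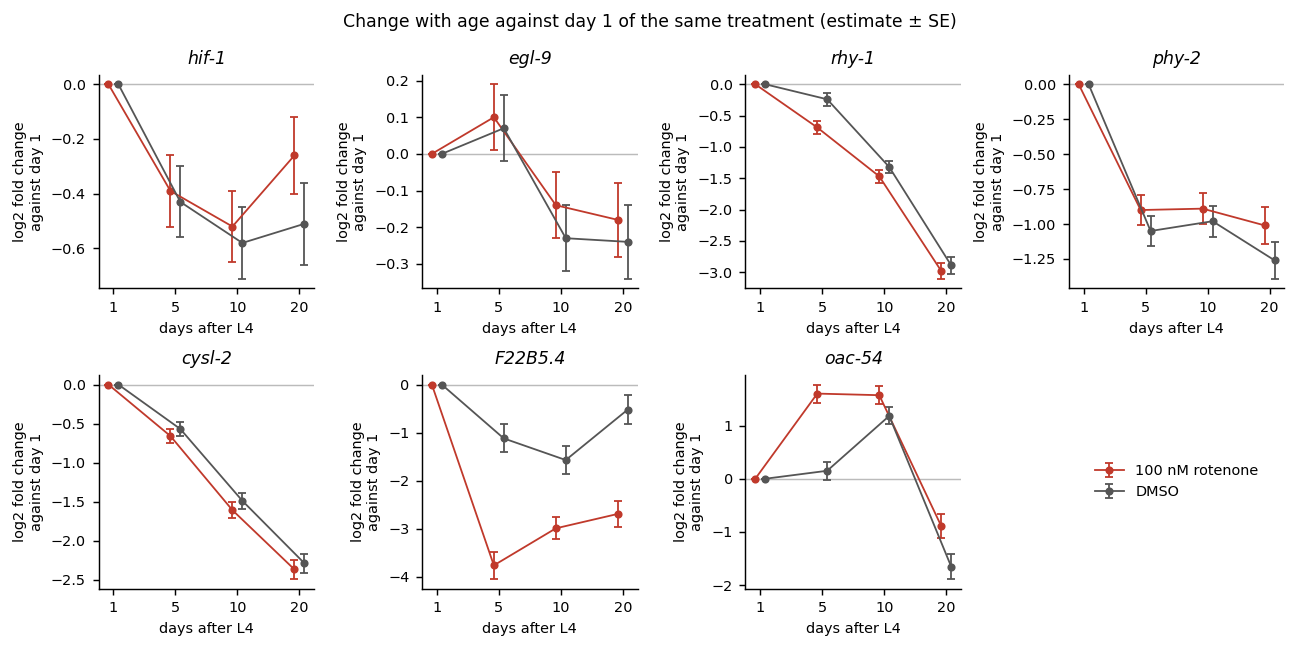
Log2 fold change against day 1 of the same treatment (y axis, own scale for each gene) with its SE, by days after L4 (x axis, evenly spaced); red is rotenone and grey is DMSO, and day 1 is set at 0. The curves of rhy-1 and cysl-2 go down at each age to between -2.29 and -2.98, whereas oac-54 is above 0 at day 10 and below 0 at day 20.

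A further 22 genes of oxygen sensing and HIF-1 response, 8 that regulate HIF-1 and 14 reported targets, were all tested. This list and the other lists below were chosen with earlier results of these data known, so their p-values for rotenone are not independent support. In rotenone against DMSO, 1 of these 22 genes rose at day 1 and none fell. Of all tested genes, 0.375% rose and 0.273% fell in the same fit. That gene was fmo-2, a flavin-containing monooxygenase known in worms as a target of HIF-1 and of the nuclear receptor NHR-49. Its levels at day 1 were 6.78, 4.48 and 6.78 CPM in rotenone and 3.45, 3.09 and 2.59 CPM in DMSO. All 3 rotenone libraries were above DMSO, at a log2 fold change of 0.96 ± 0.17 (adjusted p = 0.0082, edgeR). The call was lost without DMSO replicate 3, rotenone replicate 1 or rotenone replicate 3 of day 1 (adjusted p = 0.067, 0.088 and 0.074). At day 5 fmo-2 had 17.7 ± 0.97 CPM in rotenone and 24.1 ± 2.3 CPM in DMSO (SD, n = 3 each), at -0.44 ± 0.15 (adjusted p = 0.27). Fitting only the libraries of day 1 called 9 of the 22 genes, among them 5 higher, where that fit called 33.3% of the 15049 genes it tested.

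At days 5, 10 and 20 none of the 22 passed in edgeR without a replicate block or in DESeq2. Of all genes, edgeR called 0.88%, 1.36% and 0.0654% at these ages, and DESeq2 called 1.43%, 2.99% and 0.31%. At day 10 a replicate block at each day called swan-1, a WD40 protein gene, at -0.34 (adjusted p = 0.019), where it called 1.7% of all genes. Libraries of unlike number also deviated together at that age. At an unadjusted p under 0.05 there were 5 at day 1, 4 at day 5, 2 at day 10 and none at day 20. Of all 16822 genes, 19.4%, 9.24%, 11% and 4.75% had such a p at the 4 ages, which is also the background of the unadjusted counts of the other lists. Among the regulators at day 1, cul-2, the cullin of the ubiquitin ligase, had 231 ± 7.9 CPM in rotenone and 300 ± 8.6 CPM in DMSO, at -0.38 ± 0.16 (adjusted p = 0.23). The substrate receptor vhl-1 had 7.70 ± 0.82 CPM in rotenone and 6.27 ± 0.48 CPM in DMSO, at 0.30 ± 0.13 (adjusted p = 0.23). The elongin gene elc-1 had 21.5 ± 4.0 CPM in rotenone and 41.2 ± 2.6 CPM in DMSO, without overlap, at -0.94 ± 0.44 (adjusted p = 0.25). Other edgeR settings called some regulators at day 1. No filter on low counts called elc-1 and cul-2 (adjusted p = 3.6e-10 and 0.037), with 6.32% of all genes. Fitting day 1 alone called both, vhl-1 and others, with 33.3% of all genes. Leaving DMSO day 10 replicate 1 out of the fit over all groups called elc-1, cul-2 and swan-1 among others, with 18.4%. The replicate block at each day called cul-2 and swan-1 (adjusted p = 0.039 and 0.033), with 12.3%. Without DMSO day 10 replicate 1, 4 of the 22 passed at day 10, where 14.3% of all genes tested did. These were ftn-1, a ferritin gene, higher at 0.57 (adjusted p = 0.0055), and aha-1, the dimer partner of HIF-1, elc-1 and swan-1, lower at -0.30, -0.71 and -0.49. The median log2 fold change of the 22 was 0.10, -0.10, -0.01 and 0.08 at the 4 ages, beside 0.04, -0.01, -0.05 and 0.02 over all genes.

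**Figure D4:**
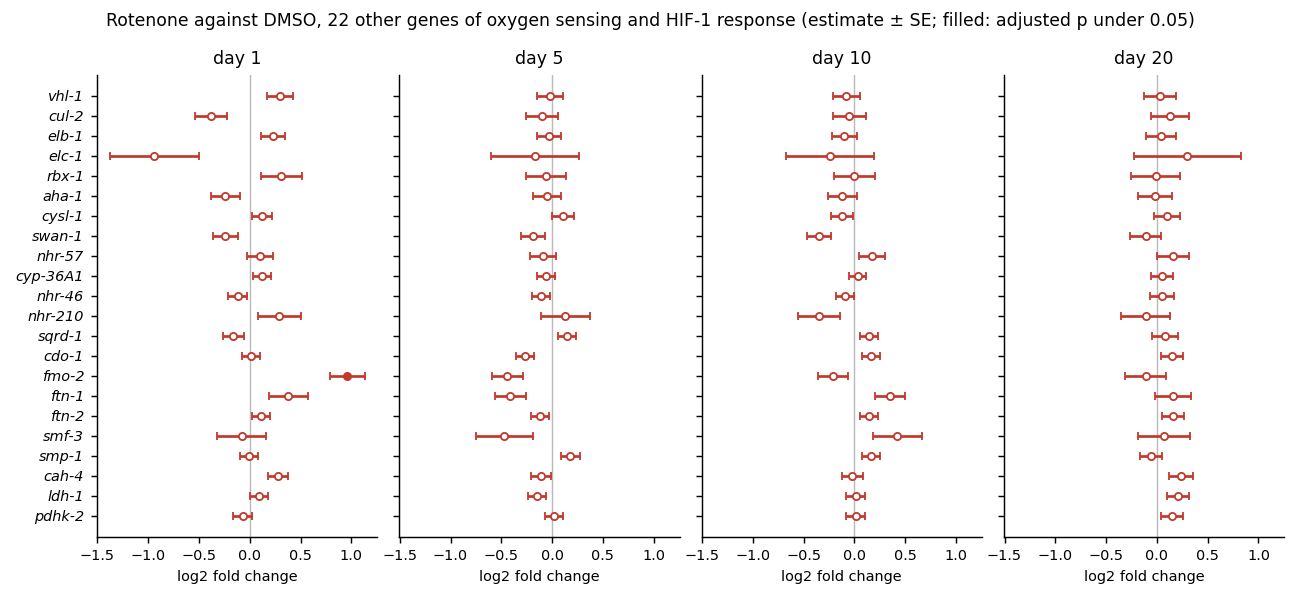
Log2 fold change of rotenone against DMSO (x axis) with its SE for the 22 other genes of oxygen sensing and HIF-1 response (y axis), in 1 panel per age; filled points passed an adjusted p of 0.05. The filled point is fmo-2 at day 1, at 0.96.

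With age the same 22 genes moved in both directions, as genes in general did. In DMSO 7 rose and 4 fell by day 5, 7 rose and 7 fell by day 10, and 7 rose and 8 fell by day 20. Over all genes in DMSO, 24.6%, 26.7% and 27.8% rose and 31.3%, 29.6% and 30.9% fell by these ages. The ferritin gene ftn-1 had 1.57 ± 0.40, 88.6 ± 11, 68.1 ± 15 and 34.6 ± 4.0 CPM at the 4 ages, a log2 fold change of 5.81 ± 0.19 by day 5 (adjusted p = 1.9e-14). The monooxygenase fmo-2 averaged 3.04, 24.1, 34.4 and 6.61 CPM, at 2.98 ± 0.17 by day 5 (adjusted p = 2.2e-11). The EGL-9 inhibitor gene cysl-1 fell by day 5, at -1.70 ± 0.11 (adjusted p = 9e-11), as did the lactate dehydrogenase gene ldh-1, at -0.89 ± 0.09 (adjusted p = 1.2e-07). These genes were picked here for the size of their change after their values were seen.

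Genes of sulfide and cysteine metabolism, the setting of cysl-2, were tested for 15 of 19 listed. None passed in rotenone against DMSO at any age in edgeR, with 1, 3, 1 and 2 at an unadjusted p under 0.05 at days 1, 5, 10 and 20. Of all genes, edgeR called 0.648%, 0.88%, 1.36% and 0.0654% at these ages. DESeq2 called 1 gene, cbs-1, at day 10, where it called 2.99% of all genes. In DMSO 3 rose and 6 fell by day 5, 2 rose and 8 fell by day 10, and 1 rose and 11 fell by day 20. Over all genes in DMSO, 31.3%, 29.6% and 30.9% fell and 24.6%, 26.7% and 27.8% rose by these ages. The cystathionine gamma-lyase gene cth-1 fell by day 20 to 21.9 ± 3.9 CPM, against 192 ± 3.1 CPM at day 1, at -3.13 ± 0.14 (adjusted p = 2.3e-13). Of the collagen prolyl 4-hydroxylase genes beside phy-2, 3 of 4 were tested (dpy-18, phy-3 and the partner subunit pdi-2). None passed in rotenone against DMSO in edgeR or DESeq2, with 2 at an unadjusted p under 0.05 at day 5 and 2 at day 10 (dpy-18 and pdi-2 each time, lower). All 3 fell in DMSO by day 5, and 2 of them (phy-3 and pdi-2) were lower than at day 1 at days 10 and 20. At day 5 pdi-2 had 551 ± 27 CPM against 1130 ± 46 CPM at day 1, at -1.04 ± 0.12 (adjusted p = 4.4e-07).

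Glycolysis, a frequent HIF-1 output in other animals, had 17 of 18 listed genes tested. None passed in rotenone against DMSO in edgeR or DESeq2, and 0, 0, 2 and 1 had an unadjusted p under 0.05 at days 1, 5, 10 and 20. In DMSO 15 of the 17 fell by day 20 and none rose, beside 30.9% and 27.8% of all genes. Of the oac family, 35 of 61 listed genes besides oac-54 were tested. At day 5, the age of the oac-54 difference, edgeR called oac-31 and oac-20 lower in rotenone and none of the 35 higher. Over all genes, edgeR called 0.648%, 0.88%, 1.36% and 0.0654% at days 1, 5, 10 and 20. The levels of oac-31 were 1.25, 0.763 and 1.09 CPM in rotenone and 2.25, 2.58 and 1.85 CPM in DMSO, at -1.07 ± 0.23 (adjusted p = 0.030). Those of oac-20 were 4.93, 4.31 and 5.20 CPM in rotenone and 7.50, 8.97 and 9.36 CPM in DMSO, at -0.84 ± 0.19 (adjusted p = 0.038). The groups did not overlap for either gene. At day 10 oac-6 was higher, with 1.28 ± 0.18 CPM in rotenone and 0.743 ± 0.093 CPM in DMSO (SD, n = 3 each), at 0.79 ± 0.19 (adjusted p = 0.049). Leaving out 1 library lost the oac-31 call for 5 of 6 libraries (adjusted p up to 0.21), the oac-20 call for all 6 (up to 0.20) and the oac-6 call for 4 of 6 (up to 0.23). Blocking on replicate number gave oac-6 an adjusted p of 0.051. At days 1 and 20 none of the family passed in edgeR, with 5 and 2 at an unadjusted p under 0.05. DESeq2 called oac-20 at day 1, where it called 2.15% of all genes. At day 5, 8 of the 35 had such a p (2 higher and 6 lower), and at day 10, 5 did (3 higher and 2 lower). DESeq2 called oac-14, oac-20 and oac-31 at day 5, and oac-20, oac-32 and oac-6 at day 10. It called 1.43% and 2.99% of all genes at these ages.

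The 7 genes did not move as one. With each library centred on the mean of its day, which leaves treatment and replicate differences, hif-1 and egl-9 had the highest correlation among the 21 pairs, at a Pearson's r of 0.77 over 22 libraries. F22B5.4 and oac-54 had the lowest at -0.53, and rhy-1 with F22B5.4 had 0.54. Without centring, rhy-1 and cysl-2 had 0.96, which holds their common decline with age. All these values share the libraries and their scaling, and they are given as a description.

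By the same centred measure over all tested genes, the genes most like hif-1 were unc-115 at 0.981 and ntl-2.2, listed as tag-153, at 0.975. For egl-9 they were frm-4 at 0.893 and stau-1 at 0.889, and for rhy-1 they were F41G3.10 at 0.767 and ugt-19 at 0.764. For phy-2 they were R05D3.9 at 0.865 and B0252.3 at 0.863, and for cysl-2 tomm-20 at 0.830 and nspd-6 at 0.769. F22B5.4 was most like the lysozyme gene lys-7, at 0.812, and the cytochrome P450 gene cyp-33C8, at 0.793. For oac-54 these were dod-23 at 0.842 and the cathepsin B-like protease gene cpr-5 at 0.827. Without DMSO day 10 replicate 1, the values over 21 libraries were between 0.769 and 0.974.

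Markers of 7 tissues were summed beside these results. In rotenone against DMSO no marker passed at any age in edgeR, with at most 2 of any tissue at an unadjusted p under 0.05. Of all genes, edgeR called 0.648%, 0.88%, 1.36% and 0.0654% at days 1, 5, 10 and 20. DESeq2 called tnc-2 at day 1 and rol-6 at day 20, where it called 2.15% and 0.31% of all genes. The intestinal sum of 5 genes was 9420 to 10800 CPM in rotenone at day 1 and 11200 to 13400 in DMSO. The germline sum of 6 genes was 4950 to 5350 CPM in rotenone at day 1 and 6090 to 6820 in DMSO. Neuronal sums of 4 genes were 234 to 255 CPM in rotenone and 217 to 239 in DMSO at that age, and epidermal sums of 5 were 1820 to 2080 and 1650 to 1720. The body wall muscle sum of 5 genes was 3360 to 3650 CPM in rotenone and 3680 to 4360 in DMSO, and the sum of 4 sperm genes 7.84 to 9.72 and 6.36 to 7.29. The sums of 4 pharynx genes overlapped, at 311 to 430 CPM in rotenone and 314 to 424 in DMSO. With age in DMSO the intestinal sum was 11200 to 13400, 5940 to 10100, 3320 to 5950 and 1430 to 2340 CPM at days 1, 5, 10 and 20. All 5 intestinal markers passed as lower at day 20, although ges-1 passed as higher at day 5. The same held at day 20 for all 5 muscle and all 5 epidermal markers. It also held for 4 of 6 germline, 3 of 4 sperm and 3 of 4 pharynx markers, beside 30.9% of all genes. The muscle sum was 248 to 349 CPM at day 20 and 3680 to 4360 at day 1, the epidermal sum 31.8 to 32.9 and 1650 to 1720, and the pharynx sum 146 to 162 and 314 to 424. The sperm sum was 3.31 to 3.58 CPM at day 20 and 6.36 to 7.29 at day 1, and the germline sum 4170 to 4350 and 6090 to 6820. The neuronal sum went the other way, at 364 to 417 CPM at day 20 and 217 to 239 at day 1. Of its 4 genes, snb-1 and egl-3 passed as higher and unc-119 passed as lower. The part of tissue make-up in the changes of the 7 genes was not tested.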

How the data were processed

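Whole-worm RNA libraries were made with the TruSeq RNA kit, per the labels' protocols. The authors deposited whole-number read counts per gene and RPKM. TopHat 1.4.1, HTSeq and build WBcel235 are named in the submitters' processing notes; annotation, strand setting and filters are not given in the sources used here. The RPKM values the authors deposited imply gene lengths unlike the exonic ones (21 bases for hif-1, against 2960), so they entered no test. Gene positions and current names came from RefSeq, and exonic lengths from an Ensembl annotation of that build; cysl-2 was matched by its current name.

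The deposited counts entered edgeR 4.0.16 (quasi-likelihood test, R 4.3.3) in 1 fit over the 8 groups, with filterByExpr, TMM and Benjamini-Hochberg adjustment over 16822 genes at 0.05. Total counts ran from 25769159 to 69961601 per library, and the common biological coefficient of variation was 0.135. SE came from the F statistic. The length trend was a lowess curve (span 0.3) per library. DESeq2 1.42.0, RLE scaling, other filters (none, or a mean count of 50), replicate blocks and leaving out each library were alternatives.

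The members and lists were chosen with earlier results of these data known. Named genes were the 7 members, up to 3 list genes per direction passing in each rotenone comparison, and the 2 genes with the highest day-centred correlation (log2 CPM, prior count 2) with each member; other list genes given with values were chosen after their values were seen. Deviations of same-numbered libraries correlated most for rotenone and DMSO at day 10 (0.16 to 0.43), so there the replicate block is given where it changes a call. At that age rotenone replicate 2 with DMSO replicate 3 had 0.17, and rotenone replicate 3 with DMSO replicate 2 had 0.24. Only the pair of replicate 1, at 0.43, was therefore set apart by its number, and it holds the DMSO library that stood apart. The tests were checked on simulated data with the same spread for every gene and no outlying library or replicate effect. That check does not cover those features of the real libraries.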

Additional observations from a re-analysis of the deposited data

Results flagged for a closer look

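The results here were marked because the rotenone effect (log2 fold change of rotenone against DMSO) differed between ages. The effect on fmo-2 at day 5 minus that at day 1 was -1.40 ± 0.23 (SE; adjusted p = 0.004, interaction in edgeR), and at day 10 minus day 1 it was -1.17 ± 0.23 (adjusted p = 0.025). All 3 rotenone libraries were above DMSO at day 1 and all 3 below at day 5. The effect on oac-20 at day 10 minus that at day 1 was 1.70 ± 0.33 (adjusted p = 0.028), with rotenone below DMSO in every library at day 1 and above in every library at day 10. The effect on F22B5.4 at day 5 minus that at day 1 was -2.64 ± 0.44; all rotenone libraries were above DMSO at day 1 and all below at day 5, and this difference was not tested because the gene was listed for its rotenone response. These differences share the day 1 libraries, and the lists that hold fmo-2 and oac-20 were chosen with earlier results of these data known.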

How the results depend on the processing

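The counts of members called with age stayed within 1.5 times under every alternative run. Over all genes, the count for rotenone against DMSO was 109, 148, 229 and 11 at days 1, 5, 10 and 20. It became 1822, 339, 362 and 64 with no filter on low counts, and 327, 227, 405 and 39 in DESeq2. A replicate block at each day gave 2075 at day 1 and 20 at day 20. Removing the length trend gave 254 at day 5 and 378 at day 10, and with the replicate block as well 883, 379, 703 and 28 at the 4 ages. Fitting only the groups compared gave 5010 at day 1, 0 at day 10 and 3 at day 20. With DMSO day 10 replicate 1 left out of the shared spread there were 3082 at day 1 and 308 at day 5. Leaving out 1 library of the groups compared gave 22 to 80 at day 1, 46 to 97 at day 5, 47 to 2396 at day 10 (2396 without DMSO day 10 replicate 1) and 0 to 63 at day 20.

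Of the 22 other pathway genes, 1 passed at day 1. The number was 3 with no filter, 3 with the replicate block at each day and 2 with that block and no length trend. It was 9 in the fit of 2 groups and 5 without DMSO day 10 replicate 1. Of all genes tested, 0.648% passed in the main fit, and 6.32%, 12.3%, 5.25%, 33.3% and 18.4% in these settings. Leaving out 1 library gave 0 to 1 at day 1 and 0 to 4 at day 10. Those fits called 0.131% to 0.477% and 0.28% to 14.3% of all genes. At day 10, 0 became 1 (swan-1) with the replicate block, with or without the length trend, beside 1.7% and 4.18% of all genes. The direction turned for egl-9: in DMSO at day 10 it was 0.05 with the length trend removed and the block (adjusted p = 0.72), and in rotenone at day 5 it was -0.28 with the length trend removed (adjusted p = 0.015). With that trend removed, rotenone at day 20 against day 1 gave hif-1 -0.67 (adjusted p = 1.1e-07) and egl-9 -0.67 (adjusted p = 1.8e-05). The rhy-1 change in DMSO at day 5 was -0.12 with the replicate block at each day (adjusted p = 0.47). The cause was not tested. Counts of 4 to 135 reads limit F22B5.4.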
